A study of Arabidopsis thaliana with 18 samples.

Results

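At 28°C, the highest of the 3 temperatures in the study, the transcriptome of Arabidopsis shoots cocultivated with the root fungus Serendipita indica (Si) was compared with that of control shoots without the fungus (CK). The 6 samples, 3 Si and 3 CK, were taken by their labels from the 18 samples of the study, whose remaining 12 are Si and CK shoots at 22 and 25°C. All plants were wild type of the accession Col-0, carried no transgene, grew under a photoperiod of 12 h light, were 9 days old at inoculation and were harvested at 7 days post inoculation (dpi). By the methods of the paper, all seedlings started at 22°C on MS medium with sucrose. Inoculation was on plates of PNM medium, and Si and CK seedlings then grew at 22, 25 or 28°C. Only the aboveground parts were collected, so the colonized root itself was not measured. The comparison asks how the shoot responds systemically to root colonization at a high ambient temperature. The labels call the 3 samples of a group biological replicates, without saying how many seedlings were pooled in each.

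S. indica is a filamentous fungus that grows into the root cortex of many plants and promotes host growth. The paper links this growth promotion to nutrient uptake and hormones, and calls the systemic response of the shoot largely unknown. In leaves, a shortage of sugar or light turns on a well-known set of starvation genes that break down amino acids and cell wall sugars, and a sufficient supply turns them off. Defence in Arabidopsis leaves rests on salicylic acid (SA), on jasmonic acid (JA) together with ethylene (ET), and on tryptophan-derived and methionine-derived compounds such as camalexin and glucosinolates. Elevated ambient temperature by itself promotes elongation through the transcription factor PIF4 and weakens SA defence.

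The deposited values are TPM, a read share corrected for transcript length and scaled to the same sum in every sample, and log2(TPM + 1) was analysed here. Of 33039 genes in the table, 20044 had at least 1 TPM in at least 3 of the 18 samples and were tested with limma. A gene was called a DEG where its Benjamini-Hochberg adjusted p was no more than 0.05 and its log2 fold change lay above 1 or below -1. By this rule 1593 genes were higher in Si at 28°C, 7.95% of those tested, and 344 were lower, 1.72% of those tested, together 9.66%. The distribution over all genes was itself shifted, with a median log2 fold change of 0.22 and a median SE of 0.11, so each fold change below is to be read against 0.22. The shift disappears by construction with median-of-ratios scaling, which left 1035 genes higher and 530 lower, or 66.1% higher in place of 82.2%. With quantile normalization 905 genes were higher and 591 lower, or 60.5% higher. Replicates of a group correlated at 0.979 to 0.984 across genes, which are not independent replicates. Between 19271 and 19509 genes reached 1 TPM in Si samples, against 18340 to 18533 in CK samples. The 200 most abundant genes of CK held 26.4 to 27.3% of all TPM in Si, against 34 to 35.8% in CK. These 200 genes were picked by their mean in the same CK samples, which favours a larger share in CK. A set picked from Si was not examined.

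Marker genes were those of leaf. RBCS1A, the small subunit of Rubisco and the mark of mesophyll, had 13922, 13186 and 12898 TPM in Si samples, against 13920, 13621 and 14404 TPM in CK samples. Of the other mesophyll markers, RCA and LHCB1.2 had log2 fold changes of -0.06 and -0.24 that did not pass the adjusted p, while CA1 and LHCB2.1 passed it at -0.77 and -0.64. Of 15 root markers, 10 had under 1 TPM in each of the 6 samples, the root meristem gene PLT2 was listed at 0 in all of them, and their sum was 6.32 to 8.05 TPM in Si, against 10.1 to 13.8 TPM in CK. CASP1, a membrane protein of the root endodermis, was the only root marker called, with 1.39 to 1.62 TPM in Si and 3.89 to 6.73 TPM in CK. Among leaf cell types, the guard cell factors FAMA and MYB60 had log2 fold changes of -0.63 and -0.58 and the guard cell channel KAT1 had 0.15. The epidermal genes PDF1, ATML1 and FDH had 0.89, 0.23 and 0.20, and none of these 6 passed the fold threshold. The part of such markers in the results below was not tested. In these bulk samples, fewer cells of a type and less RNA per cell cannot be told apart.

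**Figure D1:**
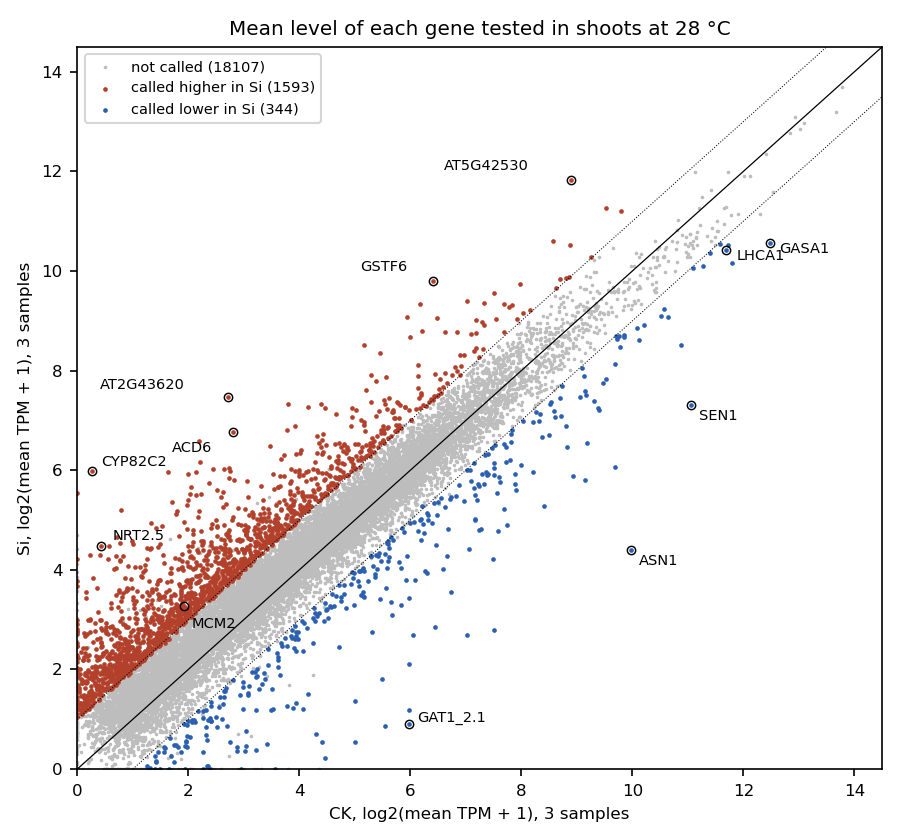
Mean TPM of each of the 20044 genes tested, as log2(mean TPM + 1), in Si (vertical axis) against CK (horizontal axis) at 28°C, with genes called higher in Si in red, called lower in blue and the rest in grey; the solid line marks equality and the dotted lines a log2 difference of 1. The 1593 red points lie mostly at low to middle levels, while blue points such as ASN1, SEN1, LHCA1 and GASA1 include some of the most abundant transcripts of CK shoots.

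Promoters of 4 genes are shown as examples from the groups described below, starvation genes that fell, defence genes that rose and DNA replication genes that rose. They do not stand for all members, many of which lack the motif. Each is the stretch of 250 bases directly before the annotated gene start, taken from RefSeq TAIR10.1 and written 5′ to 3′ on the strand of the gene. Capitals mark the motif named with the gene, which was searched on both strands with overlaps allowed. GAT1_2.1 (chr1:5181403-5181652, minus strand) is shown with the sugar-related element TATCCA. CYP82C2 (chr4:15462100-15462349, plus strand) and AT2G43620 (chr2:18095094-18095343, minus strand) are shown with the W-box, TTGACC or TTGACT, the site that WRKY factors bind. MCM2 (chr1:16969964-16970213, plus strand) is shown with the E2F site, TTTCCCGC, TTTGGCGC, TTTGGCGG or TTTCCCGG, which is bound by E2F factors of the cell cycle. No annotated exon overlaps these 4 stretches.
GAT1_2.1: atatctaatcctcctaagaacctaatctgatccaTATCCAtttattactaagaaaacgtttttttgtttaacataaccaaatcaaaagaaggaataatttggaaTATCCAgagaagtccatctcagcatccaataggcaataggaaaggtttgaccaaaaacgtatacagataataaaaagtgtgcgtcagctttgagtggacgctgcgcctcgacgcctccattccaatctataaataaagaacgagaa
CYP82C2: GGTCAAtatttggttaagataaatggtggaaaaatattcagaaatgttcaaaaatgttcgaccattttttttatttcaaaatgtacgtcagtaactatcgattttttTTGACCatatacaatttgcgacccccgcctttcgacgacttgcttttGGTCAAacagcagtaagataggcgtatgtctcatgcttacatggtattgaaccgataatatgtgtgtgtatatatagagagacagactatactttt
AT2G43620: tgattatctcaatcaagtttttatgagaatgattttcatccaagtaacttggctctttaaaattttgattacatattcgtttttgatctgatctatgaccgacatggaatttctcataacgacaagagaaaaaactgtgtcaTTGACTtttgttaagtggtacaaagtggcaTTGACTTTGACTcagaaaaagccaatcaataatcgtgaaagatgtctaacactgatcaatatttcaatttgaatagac
MCM2: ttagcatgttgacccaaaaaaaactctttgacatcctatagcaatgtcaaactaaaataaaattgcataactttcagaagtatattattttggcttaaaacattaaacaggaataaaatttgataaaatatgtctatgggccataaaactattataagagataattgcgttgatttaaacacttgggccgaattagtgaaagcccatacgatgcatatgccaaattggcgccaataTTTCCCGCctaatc

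Of the 6 motifs searched, the W-box was found in 36.9% of the promoters of genes called higher, against 28.0% of the 19760 promoters of all genes tested that had one of this length. TATCCA was found in 23.1% of the promoters of genes called lower, against 14.3% of all. The E2F site was found in 10 of the 29 DNA replication genes tested, or 34.5%, against 1.97% of all promoters. Over all genes called higher its share was 2.22%. These shares are descriptions, and a match of letters is not a bound site.

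Genes that sugar shortage and darkness induce fell in Si shoots, and 3 of them were among the 12 largest falls. Of 24 genes of this list, all tested, 19 were called lower and 1 higher, beside 1.72 and 7.95% of all genes. The median log2 fold change was -1.56, beside 0.22 over all genes. ASN1, which makes asparagine from glutamine and is a classic dark-inducible gene (chr3:17437840-17441431, minus strand), had 17.9, 19.5 and 22.7 TPM in Si, against 925, 981 and 1111 TPM in CK. All CK values lay far above all Si values, as held for 339 of the 344 genes called lower and for 14.4% of all genes tested. Such separation was a condition for naming the largest falls, so it is no separate result. The fall by 5.58 on the log2 scale (SE 0.29, limma adjusted p = 2.9e-09) was the largest of any gene tested. Exons of ASN1 overlap those of AT3G47341, and exons of GAT1_2.1 those of AT1G15030, both on the opposite strand. GAT1_2.1, a class I glutamine amidotransferase-like protein, had 0.77, 0.68 and 1.16 TPM in Si, against 39.8, 62.5 and 83.3 TPM in CK (log2 fold change -5.02, SE 0.32). SEN1, a marker of senescence and darkness, had 104, 151 and 220 TPM in Si, against 2060, 2231 and 2101 TPM in CK (log2 fold change -3.81, SE 0.28). The groups were thus apart in each of the 3 genes, by far more than the spread within a group.

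The other members that fell spanned log2 fold changes of -2.63 to -1.11. BGLU30, a dark-inducible beta-glucosidase, was at -2.63 and MIOX2, an inositol oxygenase, at -2.46. DIN11 was the member called higher, at 1.07 with an adjusted p of 0.042, with values of 15.6, 11.2 and 24.7 TPM in Si, against 6.38, 5.82 and 10.2 TPM in CK, and the call was lost with no filter, with either other scaling, with a replicate block and without Si replicate 1, Si replicate 3, CK replicate 1 or CK replicate 2. TPS10, TPS8, DRM1 and bZIP1 had values of -0.99 to -0.76 and did not pass the fold threshold. Summed over the list, TPM was 4860, 6001 and 6845 in Si, against 16083, 17608 and 19126 in CK. TATCCA was found in the promoters of 9 of the 24 genes.

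Genes that degrade amino acids fell in the same shoots. Of 27 members tested, 16 were called lower and none higher, beside 1.72 and 7.95% of all genes, with a median log2 fold change of -1.35. Their summed TPM was 1148 to 1306 in Si, against 3852 to 4060 in CK. The genes DIN4 and BCE2 are in both this list and the sugar starvation list, so the counts of these lists are not separate. BCAT2, an aminotransferase of branched-chain amino acids, had 19.8, 13.3 and 20.05 TPM in Si, against 158, 180 and 196 TPM in CK. GDH2, a glutamate dehydrogenase that returns nitrogen from amino acids as ammonium, had 55.1, 49.4 and 70.0 TPM in Si, against 458, 508 and 492 TPM in CK. The log2 fold changes were -3.27 (SE 0.24) and -3.06 (SE 0.15), and neither gene overlapped between groups. THA1, a threonine aldolase, was at -3.13 and MCCA, a subunit of the carboxylase that degrades leucine, at -2.81. Exons of THA1, MCCA and UMAMIT33 also overlap genes on the opposite strand. Outside the lists, UMAMIT33, of a family of amino acid exporters, had 0.61 to 1.96 TPM in Si and 54.2 to 71.0 TPM in CK.

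Genes of sugar transport and starch had no common direction, with 4 of 21 called higher, 2 lower and a median of 0.20, next to that of all genes. STP1, a proton-coupled hexose importer that sugar represses, had 136, 147 and 159 TPM in Si, against 579, 638 and 798 TPM in CK (log2 fold change -2.17, SE 0.20). APL3, a large subunit of the enzyme that makes ADP-glucose for starch, had 21.1, 16.6 and 18.7 TPM in Si, against 5.54, 5.08 and 6.66 TPM in CK (log2 fold change 1.55, SE 0.13). cwINV6, SWEET17 and GPT2 were the others called higher, at 2.07, 1.5 and 1.22, and GPT2 lost its call with quantile normalization, at 0.80. AMY1, an alpha-amylase, was called lower at -1.71, and its exons overlap those of AT4G24990 on the same strand.

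Light-harvesting genes, which encode the chlorophyll-binding antenna proteins, were lower in Si mostly by small steps. Of 21 members, 18 passed the adjusted p in the downward direction, beside 11.9% of all genes, but 4 of these also passed the fold threshold, and the median log2 fold change was -0.72. Their summed TPM was 15842, 17839 and 15971 in Si, against 32352, 32682 and 29502 in CK, so the groups did not overlap. LHCB1.4 fell most, with 72.4, 67.9 and 57.3 TPM in Si, against 897, 939 and 641 TPM in CK (log2 fold change -3.61, SE 0.19). LHCA1, LHCA3 and LHCB3 were the other members called, at -1.26, -1.04 and -1.01. LHCB4.3 was the exception and rose, with 79.1, 79.9 and 78.1 TPM in Si, against 19.7, 17.9 and 22.8 TPM in CK (log2 fold change 1.93, SE 0.11). The LHCB1 copies are nearly identical in sequence, so the division of reads among them is uncertain. The number called lower was 7 with median-of-ratios scaling, 2 with quantile normalization and 2 without Si replicate 1.

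**Figure D2:**
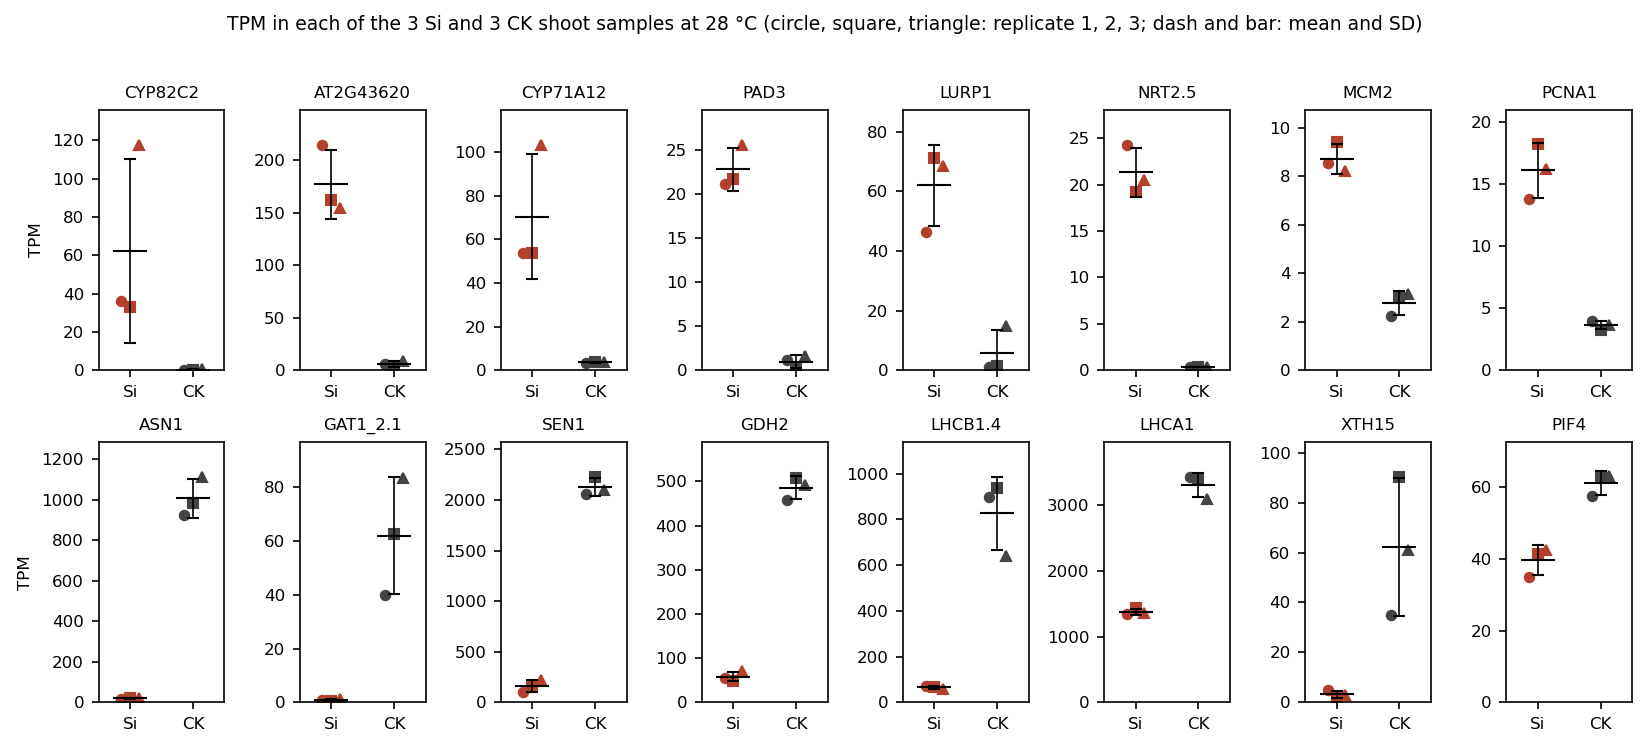
TPM of 16 genes in each of the 3 Si samples (left, red) and 3 CK samples (right, grey) at 28°C, each panel on its own axis from 0, with a dash and a bar for the mean and SD. In the upper row Si lies above CK and in the lower row below it, with no overlap in any panel; Si replicate 3 is the highest in CYP82C2 and CYP71A12, and CK replicate 3 is the highest of CK in LURP1.

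Several of the largest rises were those of defence genes. The pathway from tryptophan to camalexin and to 4-hydroxyindole-3-carbonyl nitrile (4-OH-ICN), both antimicrobial indole compounds, rose, with all 16 members called higher and a median log2 fold change of 1.97. CYP82C2, which hydroxylates ICN, had the largest rise of any gene with some TPM in both groups, with 36.1, 33.2 and 118 TPM in Si, against 0, 0 and 0.62 TPM in CK (log2 fold change 5.50, SE 0.93, limma adjusted p = 1.6e-04). AT1G26380, a berberine-type oxidase of the same route, had 89.4, 74.5 and 121 TPM in Si, against 2.86, 4.28 and 3.51 TPM in CK. Both had every Si value above every CK value, as held for 1574 of the 1593 genes called higher and for 49.5% of all genes tested. Such separation was a condition for naming the largest rises, so it is no separate result. The Si values of CYP82C2 spread widely, with replicate 3 above replicates 1 and 2 combined. Upstream, CYP79B2, which makes indole-3-acetaldoxime from tryptophan, was at 3.55 (SE 0.22), CYP71A12 at 3.88 (SE 0.37) and PAD3, which completes camalexin, at 3.67 (SE 0.31). TSA1 and ASA1 of tryptophan synthesis were at 2.32 and 1.90, and the factor WRKY33 that drives the pathway was at 1.42 and lost its call with no filter, with median-of-ratios scaling and without Si replicate 3 or CK replicate 1. The W-box was found in the promoters of 10 of these 16 genes, 3 times in that of CYP82C2.

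Genes that make both classes of glucosinolates, the sulfur-rich defence compounds of the cabbage family, rose as well, while the compounds themselves were not measured. For indole glucosinolates, 12 of 17 genes were called higher and none lower, with a median of 1.28. CYP81F2, which hydroxylates the indole ring, had 48.3, 49.8 and 63.7 TPM in Si, against 7.59, 6.48 and 8.04 TPM in CK (log2 fold change 2.71, SE 0.25). IGMT2 and IGMT3, which methylate its product, were at 3.61 and 3.32, but they are close tandem copies whose reads may not be separable. For aliphatic glucosinolates, made from methionine, 16 of 20 genes were called higher and none lower, with a median of 1.91. MAM3, which elongates the methionine side chain, had 37.5, 41.2 and 42.3 TPM in Si, against 2.05, 2.71 and 2.0 TPM in CK (log2 fold change 3.67, SE 0.21). BCAT4, CYP79F1 and GSTU20, of the same pathway, were at 2.77, 2.95 and 3.03, and their factor MYB29 was at 2.46.

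Chitinases, which cleave the chitin of fungal walls, had a median of 2.34, with 10 of 13 called higher and none lower. This was the highest median of the 23 lists among genes past the filter, but with no filter it was 1.28, below that of the camalexin list, 1.97. AT2G43620, a family member with 3 W-box matches in its promoter, had 215, 162 and 154 TPM in Si, against 5.83, 2.52 and 8.35 TPM in CK (log2 fold change 4.86, SE 0.38, adjusted p = 9.8e-08). PR3, the basic chitinase, had 60.5, 47.0 and 42.4 TPM in Si, against 2.08, 3.87 and 3.54 TPM in CK (log2 fold change 3.63, SE 0.27). PR3 is also a member of the defensin list described next. AT4G01700 and AT2G43590 followed at 3.36 and 3.33. CTL1, CTL2 and ChiC were the members not called, at 0.16, 0.32 and 0.79, and CTL1 and CTL2 are chitinase-like proteins of cell wall formation.

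In the branch of JA and ET signaling that ends in defensins, 6 of 9 genes were called higher, with a median of 1.66. The factor ORA59 was at 1.66 (SE 0.21), and PR4 had 781, 600 and 596 TPM in Si, against 144, 189 and 147 TPM in CK. PDF1.2, a plant defensin, had 15.8, 36.4 and 30.8 TPM in Si, against 0.58, 1.32 and 11 TPM in CK (log2 fold change 2.94, SE 0.57). CK replicate 3 was well above the other CK samples, yet below all Si samples. The near-identical copy PDF1.2c moved alike, at 2.87. ERF1, which acts beside ORA59, had 3.68, 4.75 and 4.89 TPM in Si and 1.3, 2.92 and 5.0 TPM in CK, and its log2 fold change of 0.52 had an adjusted p of 0.33.

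Most JA and ET genes were not called at this temperature. Of 36 JA genes, 6 were called higher and 1 lower, with a median of 0.40, and of 20 ET genes 2 were called higher and none lower, with a median of 0.29, beside 7.95% of all genes called higher. In JA synthesis LOX4 was at 2.16, OPCL1 at 1.24 and AOC3 at 1.23, whereas the repressor JAZ1 was at 1.0 and the master factor MYC2 at -0.06, neither called. JAZ1 passed with the 5 TPM filter, with a filter within 28°C, in a fit of the 28°C samples alone, with a replicate block (limma adjusted p = 0.0046) and without Si replicate 1 or CK replicate 3. VSP2, a storage protein that JA induces, had 0.33, 1.95 and 3.14 TPM in Si, against 1.75, 10.5 and 7.56 TPM in CK. These values overlap, and its call (log2 fold change -1.35, adjusted p = 0.025) was lost with no filter, in a fit of the 28°C samples alone and without Si replicate 1, CK replicate 2 or CK replicate 3. Of the ET genes, ACS6, which makes the ET precursor, was at 1.68 and lost its call without Si replicate 3 or CK replicate 1, and ACO1 was at 1.0 and lost its call with either other scaling and without Si replicate 1, Si replicate 2 or CK replicate 1. With either other scaling 2 JA genes were called higher, while 3 were called lower with median-of-ratios scaling and 4 with quantile normalization.

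SA and systemic immunity genes rose, with 16 of 19 called higher, none lower and a median of 1.25. LURP1, which pathogens induce late, had 46.5, 71.1 and 68.5 TPM in Si, against 0.94, 1.54 and 14.8 TPM in CK (log2 fold change 3.86, SE 0.72). EDS5, which exports SA from the chloroplast, had 10.2, 8.14 and 10.3 TPM in Si, against 1.27, 1.47 and 1.46 TPM in CK (log2 fold change 2.13, SE 0.15). ICS1, the main SA synthesis enzyme, was at 1.22 and PR5 at 1.88, both apart between groups. ICS1 lost its call with either other scaling, at 0.98 with median-of-ratios scaling and 0.93 with quantile normalization. PR1, the usual marker of SA signaling, stayed under the filter, with at most 0.22 TPM in any of the 6 samples. Outside the list, ACD6, an ankyrin membrane protein that raises SA, had 114, 110 and 99.3 TPM in Si, against 2.81, 1.71 and 13.5 TPM in CK. CK replicate 3 was again the highest CK sample in LURP1 and ACD6, and also in WRKY70, which had 50.5, 67.2 and 71.8 TPM in Si against 7.98, 12.1 and 37.1 TPM in CK and lost its call without CK replicate 1. With quantile normalization 8 of the 19 genes were called.

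DNA replication genes rose by about one step on the log2 scale. Of 29 members tested, 14 were called higher and none lower, 26 passed the adjusted p upward, beside 43.5% of all genes, and the median was 0.96. PCNA1, the sliding clamp of the replication fork, averaged 16.1 ± 2.21 TPM in Si and 3.61 ± 0.33 TPM in CK (SD, n = 3 each), with a log2 fold change of 1.88 (SE 0.20). MCM2, a subunit of the replicative helicase whose E2F site lies 14 bases before the gene start, had 8.55, 9.39 and 8.2 TPM in Si, against 2.22, 2.98 and 3.14 TPM in CK (log2 fold change 1.37, SE 0.15). The groups did not overlap for either gene. MCM4 was at 1.14 (SE 0.11), and MCM3, MCM5, MCM6 and MCM7 were at 1.12, 1.3, 1.34 and 1.27. ORC2, of the complex that marks origins, had 1.84, 2.04 and 2.0 TPM in Si, against 0.49, 0.68 and 0.56 TPM in CK. Its log2 fold change of 0.91 on log2(TPM + 1) missed the threshold, but with a pseudocount of 0.1 it was 1.61 and with 0.5 it was 1.19, both called. The histone H3 genes AT1G09200, AT5G10400, AT5G10390 and AT5G65360 were at 1.43, 1.41, 1.39 and 1.3, and their reads may be shared among copies. With median-of-ratios scaling 9 members were called and with quantile normalization 7.

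For mitosis, all 14 genes passed the adjusted p in the upward direction with a median of 0.84, but 3 passed the fold threshold. These were CYCB2;2, AUR1 and HINKEL, a cyclin, a mitotic kinase and a kinesin of cell plate formation, at 1.07, 1.04 and 1.03. None of the 3 was called with either other scaling or without CK replicate 1. The number called was 1 with the 5 TPM filter or without Si replicate 2, 5 without CK replicate 3 and 7 with either smaller pseudocount.

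Nutrient genes rose in part. For nitrogen, 9 of 18 genes were called higher, with a median of 1.1. NRT2.5, a high-affinity nitrate transporter of nitrogen-starved plants, had 24.3, 19.2 and 20.4 TPM in Si, against 0.33, 0.33 and 0.39 TPM in CK (log2 fold change 4.04, SE 0.15, adjusted p = 2.4e-10). GLN1;1, a cytosolic glutamine synthetase, had 592, 504 and 490 TPM in Si, against 85.5, 95.9 and 83.0 TPM in CK (log2 fold change 2.57, SE 0.13). DUR3, a urea importer, was at 2.64 and NRT2.1 at 2.03, while the nitrate reductase NIA1 was at -0.19. AMT1;1, an ammonium transporter, had 145, 123 and 88.3 TPM in Si, against 41.1, 31.2 and 31.1 TPM in CK, and was not called (log2 fold change 1.74, SE 0.78, adjusted p = 0.071), but it was called in a fit of the 28°C samples alone (limma adjusted p = 6.8e-04).

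For sulfur, 10 of 18 genes were called higher and none lower, with a median of 1.09. APR1 and APR3, which reduce activated sulfate, were at 2.58 (SE 0.16) and 1.72 (SE 0.11), and APK2, which supplies activated sulfate to glucosinolates, was at 2.41. For iron, 4 of 13 were called higher, with a median of 0.83. OPT3, which loads iron into the phloem, had 78.0, 81.4 and 82.2 TPM in Si, against 23.8, 29.0 and 29.8 TPM in CK (log2 fold change 1.52, SE 0.12). AT2G30766, AT1G47395 and NAS4 were the others called, and FER1, an iron storage protein, was at -0.94. AT1G47395 lost its call with either other scaling and without Si replicate 3 or CK replicate 1. For phosphate starvation, none of 14 was called higher, beside 7.95% of all genes, with a median of 0.43. By the adjusted p alone, 5 were higher and 3 lower. With either smaller pseudocount 2 were called higher, and without Si replicate 2 or CK replicate 2 it was 1. AT4 and GDPD1 were called lower, at -1.16 and -1.04, beside 1.72% of all genes. GDPD1 lost its call in a fit of the 28°C samples alone and without Si replicate 1, CK replicate 2 or CK replicate 3. In the flavonoid list 8 of 14 genes tested were called higher, with a median of 1.01. They were led by MYB90, an anthocyanin regulator, with 72.6, 47.8 and 58.1 TPM in Si against 1.91, 3.56 and 3.51 TPM in CK. CHS, the entry enzyme of flavonoids, was at 2.92. The rest of the 24 genes of this list stayed under the filter and were not tested. Among them were the anthocyanin genes DFR and LDOX, with at most 0.07 and 0.37 TPM in any of the 6 samples. With quantile normalization 4 flavonoid genes were called.

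Genes tied to warmth and stress gave mixed values. PIF4, the central factor of the growth response to warmth, had 34.9, 41.5 and 42.6 TPM in Si, against 57.4, 62.9 and 63.2 TPM in CK. Its log2 fold change of -0.62 (SE 0.09, adjusted p = 6.0e-05) did not pass the fold threshold, and the groups did not overlap. Of 18 genes of the thermomorphogenesis and growth hormone list, IAA19, HB2 and GA3OX1 were called higher, at 1.49, 1.43 and 1.07. GA3OX1 lost its call with either other scaling and without Si replicate 1. XTH15, a wall-loosening enzyme, was called lower with 4.90, 2.22 and 2.77 TPM in Si against 35.1, 90.2 and 60.8 TPM in CK. Of 12 heat shock genes, ROF2, HSP18.2, HSP90.1, HSP70 and AT1G07400 were called higher, at 1.02 to 1.08, but none with either other scaling, and 1 to 3 were called without Si replicate 1, Si replicate 3 or any one CK replicate. In the abscisic acid and cold list of 12, RAB18, RD20 and HAI1 were called lower, at -2.38, -1.13 and -1.11, and RD29A higher, at 1.37. RD29A lost its call with quantile normalization, where 5 genes of the list were called lower, and HAI1 lost its call without Si replicate 2. In the hypoxia list of 14, HB1, PCO1 and SAD6 were called higher, at 2.27, 1.69 and 1.64, and AT1G19530 lower, with 7.79, 5.37 and 4.54 TPM in Si against 170, 159 and 214 TPM in CK.

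**Figure D3:**
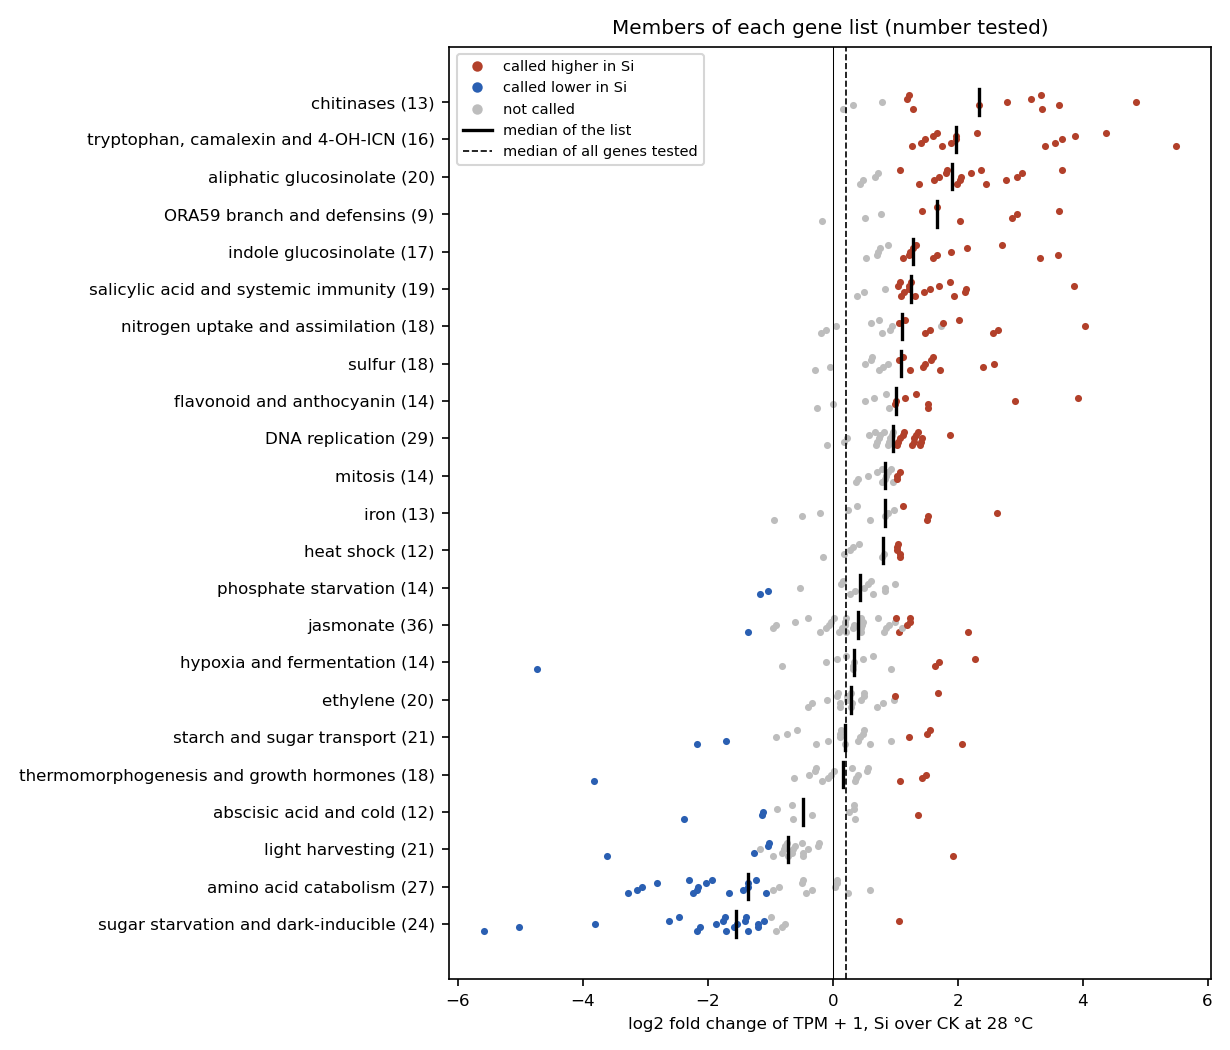
Log2 fold change of TPM + 1 at 28°C, Si over CK, for every tested member of the 23 gene lists, with members called higher in red, called lower in blue and not called in grey; the black bar is the median of the list and the dashed line the median of all genes tested, 0.22. Medians run from 2.34 for chitinases to -1.56 for the sugar starvation list, and those of the starch and thermomorphogenesis lists, 0.20 and 0.17, lie nearest to the dashed line.

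Measured in TPM, several of the largest gains and losses lay in abundant genes not described above, although SEN1, LHCA1 and LHCA3 were also among the 10 largest losses. AT5G42530, an uncharacterized protein, had 4051, 3516 and 3320 TPM in Si, against 203, 328 and 902 TPM in CK, the largest gain of any called gene. PRXR1, a peroxidase, had 2600, 2457 and 2284 TPM in Si, against 671, 734 and 812 TPM in CK. GSTF6, GSTF7, GSTF9 and GSTF10, glutathione transferases of the phi class, were at 3.4, 3.18, 1.65 and 2.06 on the log2 scale. The largest loss was that of GASA1, a gibberellin-regulated peptide, with 2252, 1038 and 1237 TPM in Si, against 5945, 6275 and 5011 TPM in CK. Together the genes called higher held 7.22 to 7.69% of all TPM in Si, against 2.2 to 2.52% in CK, and the genes called lower 2.48 to 2.76% in Si, against 7.51 to 7.58% in CK. Because TPM sums to a fixed total, the loss of one set and the gain of the other are not independent.

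The same comparison was made at 22 and 25°C with separate Si and CK samples, where 8.0 and 9.43% of genes were called higher and 1.34 and 2.69% lower, or 9.33 and 12.1% in either direction. Whether the difference at 28°C differed from that at 22 or 25°C was tested as an interaction at an adjusted p of at most 0.05, and both interactions use the 28°C samples. Against 22°C, 6.92% of genes had a higher log2 fold change at 28°C and 10.2% a lower one, and against 25°C these were 3.27 and 5.32%. Of the 488 genes called higher at 28°C alone, 107 passed both interactions in that direction, and of the 58 called lower at 28°C alone, 14 did.

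The sugar starvation list fell at every temperature, most at 25°C. Its medians at 22, 25 and 28°C were -0.99, -2.22 and -1.56, with 12, 23 and 19 of 24 called lower, and by the interaction 10 members had a lower value at 28 than at 22°C and 1 a higher one, while 8 had a higher value at 28 than at 25°C. The ASN1 values, in the same order of temperature, were -3.86, -7.09 and -5.58. For amino acid catabolism the medians were -1.51, -1.97 and -1.35, and 16 of 27 members had a higher value at 28 than at 25°C. For light-harvesting genes the medians were -1.24, -0.74 and -0.72, and by the interaction 9 of 21 members had a higher value at 28 than at 22°C and 3 a lower one. LHCB1.4 was among the 3, at -2.25 at 22°C and -3.61 at 28°C.

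Chitinases rose most at 28°C, with medians of 0.89, 1.44 and 2.34 at 22, 25 and 28°C. By the interaction 6 of 13 had a higher value at 28 than at 22°C and 4 a higher one than at 25°C, against 6.92 and 3.27% of all genes. AT2G43620 was at 0.91, 2.23 and 4.86. SA genes had medians of 0.49, 0.58 and 1.25, with 5 of 19 higher in each interaction, and LURP1 was at -0.72, 2.94 and 3.86. The list of 16 tryptophan, camalexin and 4-OH-ICN genes had medians of 1.95, 1.74 and 1.97, with 4 members higher at 28 than at 22°C by the interaction. NRT2.5 rose most at 28°C, at 0.68, 1.45 and 4.04, and passed both interactions (adjusted p = 1.2e-06 against 22°C and 4.4e-05 against 25°C).

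JA genes showed the opposite course. Their medians were 1.43, 0.23 and 0.40 in order of temperature, 25 of 36 were called higher at 22°C, and by the interaction 17 had a lower value at 28 than at 22°C and 1 a higher one, against 10.2 and 6.92% of all genes. OPCL1 was at 3.30, 1.22 and 1.24. Sulfur genes had medians of 1.77, 1.31 and 1.09, with 11 of 18 lower at 28 than at 22°C. DNA replication genes had medians of 0.98, 1.38 and 0.96, with 13, 21 and 14 of 29 called higher, and 2 higher and 1 lower at 28 than at 22°C by the interaction. For MCM2, MCM4 and ORC2 the interactions with 22°C were 0.13, 0.17 and 0.20, with adjusted p of 0.73, 0.49 and 0.55.

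The largest interactions included a pair of genes lower in Si at 25 and 28°C but not at 22°C. TCH4, a touch-induced wall enzyme, had values of 0.76, -2.87 and -2.85 in order of temperature, and PHI-1, a phosphate-induced protein, had 0.62, -4.06 and -3.38. At 28°C TCH4 had 25.6, 24.6 and 36.6 TPM in Si, against 206, 190 and 239 TPM in CK. AT4G12500, of a lipid transfer protein family, was at -0.34, -0.15 and 2.88 and passed both interactions.

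**Figure D4:**
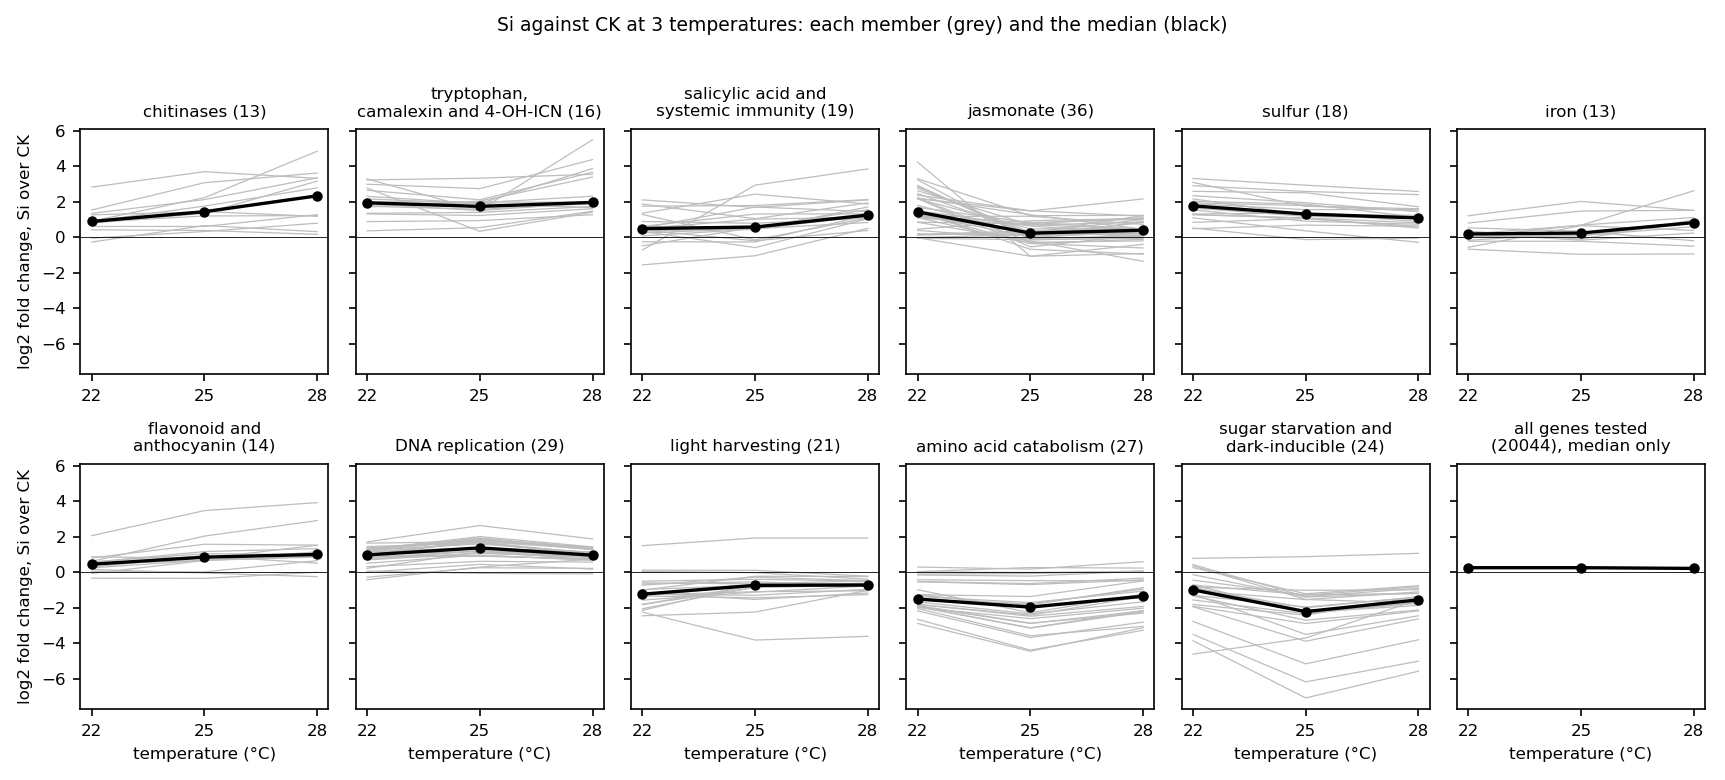
Log2 fold change of Si over CK at 22, 25 and 28°C for 11 gene lists, with a grey line for each member and a black line for the median, and in the last panel the median of all 20044 genes tested. Chitinase and SA medians are highest at 28°C, the JA median is highest at 22°C, and the sugar starvation and amino acid catabolism medians are lowest at 25°C.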

How the data were processed

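RNA of 18 shoot samples was sequenced by the authors. The paper names TAIR10 as the genome and RSEM for quantification, whereas the protocol with the samples names SeqPrep, Sickle, HISAT2 in orientation mode and StringTie. Tool versions were not given in these sources. The deposited table holds TPM for 33039 genes, 206 of them with identifiers outside the TAIR10 annotation. TPM keeps no depth, so read numbers and counting errors are unknown, precision rests on 3 replicates, and a count test could not be run.

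Genes reaching 1 TPM in 3 or more samples, 20044 in number, were kept, and log2(TPM + 1) was fitted with limma 3.58.1 in R 4.3.3 as 6 group means over all 18 samples, with a variance trend and 12 residual degrees of freedom. Tests were two-sided with Benjamini-Hochberg adjustment over all genes. Fold changes on this scale understate the change of low genes. The code was tested on simulated data. Names, positions and promoters came from RefSeq TAIR10.1, which held 32548 of the genes, and tables and figures were made with Python 3.11.15.

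The comparison, the 23 gene lists and the markers were chosen with earlier results of these data known, so lists are given as counts and medians with no list test. The rule for naming genes took the 12 largest rises and falls in log2 fold change among called genes with no overlap between groups, some TPM in each group and at least 200 bases, the 10 largest gains and losses in mean TPM, up to 4 called members per list, the genes the paper names, and the 3 largest per interaction and direction. Not all of these are printed, and the other genes were named after their values were seen. Alternatives were pseudocounts of 0.1 and 0.5, no filter, a filter at 5 TPM, a filter within 28°C, a fit of the compared samples alone, median-of-ratios and quantile scaling, no fold threshold, a replicate block and each 28°C sample left out.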

Additional observations from a re-analysis of the deposited data

Results flagged for a closer look

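The log2 fold change of Si over CK at 28°C differed from that at another temperature, by the interaction in limma at an adjusted p of at most 0.05, in 64 of the 135 genes named. Each value is the log2 fold change at 28°C minus that at the temperature named, and where both interactions passed the larger is given. Some of these genes were named for a large interaction and others after their values were seen, so this count cannot be compared with shares of all genes. Among all genes, for each interaction and direction apart, 6.92% passed higher and 10.2% lower against 22°C, and 3.27% higher and 5.32% lower against 25°C. Groups of 3 were not tested for single samples that stand apart.

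Against 22°C, higher values were found among the sugar and amino acid genes for cwINV6 (1.67) and GPT2 (1.15). Against 22°C, lower values were found among the sugar and amino acid genes for ASN1 (-1.72), AMY1 (-1.69), GAT1_2.1 (-1.51), TPS8 (-1.35), MIOX2 (-1.23), STP1 (-1.08) and GDH2 (-1.01). Against 25°C, higher values were found among the sugar and amino acid genes for SEN1 (1.36), THA1 (1.33), MCCA (0.87) and DRM1 (0.47). Against 25°C, lower values were found among the sugar and amino acid genes for SWEET17 (-0.66). Against 22°C, higher values were found among the light-harvesting genes for LHCB3 (1.44), LHCB2.1 (1.17) and LHCB1.2 (0.77). Against 22°C, lower values were found among the light-harvesting genes for LHCB1.4 (-1.36). Against 22°C, higher values were found among the defence genes for LURP1 (4.58), AT2G43620 (3.94), AT4G12500 (3.22), CRK5 (2.43), PR3 (2.08), IGMT2 (2.08), AT4G01700 (2.01), IGMT3 (1.89), GSTF6 (1.69), WRKY60 (1.66), MAM3 (1.55), GSTF7 (1.28), ICS1 (0.85) and ChiC (0.84). Against 25°C, higher values were found among the defence genes for CYP71A12 (1.97), PAD3 (1.55) and CYP81F2 (1.37).

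Against 22°C, lower values were found among the JA and ET genes for MYC2 (-3.30), VSP2 (-2.20), OPCL1 (-2.07), JAZ1 (-1.77) and ORA59 (-1.02). Against 22°C, higher values were found among the nutrient and flavonoid genes for NRT2.5 (3.36), AT2G30766 (2.44), CHS (2.3), MYB90 (1.87), NRT2.1 (1.70), DUR3 (1.05), GLN1;1 (1.04) and OPT3 (0.72). Against 22°C, lower values were found among the nutrient and flavonoid genes for GDPD1 (-1.84), APR3 (-0.87) and APR1 (-0.73). Against 22°C, higher values were found among the growth, wall and DNA replication genes for GA3OX1 (0.81). Against 22°C, lower values were found among the growth, wall and DNA replication genes for PHI-1 (-4.00), TCH4 (-3.61), XTH15 (-2.48), XTH25 (-2.24) and XTH7 (-1.41). Against 25°C, higher values were found among the growth, wall and DNA replication genes for PIF4 (0.53). Against 25°C, lower values were found among the growth, wall and DNA replication genes for MCM5 (-0.61) and MCM7 (-0.58). Against 22°C, higher values were found among the stress genes for SAD6 (1.49) and PCO1 (1.34). Against 22°C, lower values were found among the stress genes for RAB18 (-1.29) and HAI1 (-1.0).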

How the results depend on the processing

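Without a fold threshold 8721 genes were called higher and 2384 lower in Si at 28°C. A pseudocount of 0.1 gave 2256 and 453, and the 5 TPM filter 1176 and 303. With median-of-ratios scaling 1035 genes were called higher and 530 lower, and with quantile normalization 905 and 591. Leaving out 1 of the 6 samples gave 1480 to 1659 genes higher and 332 to 396 lower. It gave 2638 to 3010 genes for the interaction of 28 with 22°C, beside 3441 with all samples, and 1029 to 1482 for that of 28 with 25°C, beside 1722; the count against 25°C was 1035 without Si replicate 1, 1029 without Si replicate 3 and 1079 without CK replicate 2. Fewer samples enter these fits.

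Among the 28°C samples, deviations of Si and CK samples with the same replicate number correlated at 0.060, 0.0073 and 0.032. Those with different numbers correlated at -0.092 to 0.060. So few samples of a single temperature cannot settle whether replicate numbers pair the samples. With a replicate block 1596 genes were called higher and 348 lower, and 3737 and 1967 passed the interactions with 22 and 25°C. Among the genes named, the block ended the call of DIN11 and gave one to JAZ1.

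Of 118 called genes among those named, 30 lost the call under at least one alternative, 17 with median-of-ratios scaling, 24 with quantile normalization and 20 when 1 sample was left out. JAZ1, AMT1;1, ORC2, DRM1, TPS8, TPS10, bZIP1 and FER1 were not called but gained the call under at least one alternative. Directions turned in 4 genes, none of them called. CTL1 was at -0.085 with median-of-ratios scaling and CTL2 at -0.055 with quantile normalization. MYC2 ranged from -0.42 to 0.44 and NIA1 from -0.49 to 0.093 when 1 sample was left out. List medians turned for starch and sugar transport, -0.043 with median-of-ratios scaling, for hypoxia, -0.018 with quantile normalization, and for thermomorphogenesis, -0.069 with the 5 TPM filter, -0.037 with median-of-ratios scaling and -0.15 with quantile normalization. With no filter the abscisic acid and cold median was 0.063, and the chitinase, flavonoid, iron and heat shock medians were 1.28, 0.45, 0.39 and 0.37, beside 2.34, 1.01, 0.83 and 0.80 with it. Where no construction is named, the cause was not tested. TPM holds no depth, so counting error for genes of few reads is unknown.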

Other observations

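Several gene families were also counted, and they were chosen after their values were seen. Some of their members, such as GSTF6, GSTU20, WRKY33, WRKY70 and XTH15, are also in the lists above, so these counts are not separate from them. Among all genes tested, 7.95% were called higher and 1.72% lower at 28°C. By the interaction 6.92% were higher and 10.2% lower against 22°C, and 3.27% higher and 5.32% lower against 25°C. Of 29 cysteine-rich receptor-like kinases (CRKs), a family tied to defence and cell death, 17 were called higher in Si at 28°C and none lower, with a median log2 fold change of 1.19, and by the interaction 10 had a higher value at 28 than at 22°C and 2 a lower one. CRK5 had 18.4, 15 and 13.8 TPM in Si, against 0.93, 0.97 and 1.27 TPM in CK (log2 fold change 3.02). Some of the CRKs called were low, such as CRK15, with 1.34 to 3.17 TPM in Si and 0 TPM in every CK sample. Many CRKs lie in tandem and resemble each other, so their reads may be divided with error. Of 50 WRKY factors, 15 were called higher and none lower, with a median of 0.48, and WRKY60 had 27.4, 22.2 and 19.6 TPM in Si, against 3.87, 3.47 and 3.80 TPM in CK. Of 31 tau and phi glutathione transferases, which conjugate glutathione to reactive compounds, 17 were called higher and none lower, with a median of 1.16.

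Enzymes of the growing cell wall were divided. Of 20 xyloglucan endotransglucosylase/hydrolases (XTHs), which cut and rejoin xyloglucan, 9 were called lower and 3 higher, with a median of -0.60. By the interaction 12 had a lower value at 28 than at 22°C and 2 a higher one, but against 25°C 1 was lower and 1 higher. At 25°C 9 XTHs were called lower and 4 higher, beside 2.69 and 9.43% of all genes. XTH7 had 573, 504 and 439 TPM in Si, against 140, 170 and 156 TPM in CK, whereas XTH25 had 0.26, 0.58 and 0.53 TPM in Si, against 21.4, 20.9 and 18.4 TPM in CK. Of 13 expansins, which loosen walls, 6 were called higher and none lower, with a median of 0.96. At 25°C 11 expansins were called higher and none lower, and 6 had a lower value at 28 than at 25°C by the interaction and 1 a higher one.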
